A study of Mus musculus with 8 samples.

Results

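The transcripts of 10 subunit genes of the BAF and PBAF chromatin remodellers, Smarca4, Smarcb1, Smarcc2, Smarcd1, Smarcd2, Smarce1, Arid1a, Arid1b, Arid2 and Pbrm1, were compared between OT-I CD8 T cells edited at Carm1 and control-edited cells. They were taken by symbol from 49315 genes with counts, and all 10 were found and passed the filter on low counts. OT-I cells are mouse cytotoxic T cells with a transgenic receptor for an ovalbumin peptide. Both arms carried the CD45.1 marker, were kept in culture with IL-7 at 2.5 ng/ml and IL-15 at 50 ng/ml, and received CRISPR-Cas9 by nucleofection. The control guide RNA was against LacZ, a bacterial gene, and that group is labelled both Control KO and WT, while the other guide was against Carm1. RNA was collected 7 days after editing, and 4 libraries were made per arm. The labels call these 4 technical replicates and give no animal number, age or sex, so a p-value reflects library-to-library spread alone, and effects of the edit and of how each arm's cells were prepared cannot be told apart. The series text adds co-culture of both arms with B16F10-Ova melanoma cells, which the sample protocols do not describe as a step before RNA collection. The edited population was not described as a clone.

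SWI/SNF complexes slide and eject nucleosomes with the energy of ATP. Each has 1 ATPase, Smarca4 or its paralogue Smarca2, on a core scaffold, and comes in different assemblies. BAF is defined by Arid1a or Arid1b, PBAF by Arid2, Pbrm1, Phf10 and Brd7, and the non-canonical ncBAF by Brd9 and Bicra or Bicral. The ncBAF complex lacks Smarcb1, Smarce1 and the Arid subunits. In T cells these complexes open chromatin on activation, and loss of Arid1a in activated CD8 T cells is known to favour memory cells. Carm1 encodes an arginine methyltransferase that methylates the scaffold protein made by Smarcc1.

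Total counts ran from 37556330 to 41439998 per library. The 10 subunits took 0.137% to 0.140% of all counts in the control and 0.120% to 0.128% in the Carm1-edited libraries, and the least counted value of any subunit in any library was 1560 counts, for Smarcd1. Levels are given as CPM, counts divided by a library size that TMM factors adjust, with the mean ± SD of the 4 libraries of an arm. A log2 fold change is the edited minus the control value and carries a standard error (SE). Tests are edgeR quasi-likelihood tests with Benjamini-Hochberg adjustment over all 14970 genes tested, at a threshold of 0.05. Carm1 itself was lower in 4 of 4 edited libraries, at 32.8 ± 0.493 CPM beside 95.9 ± 1.04 CPM in the control. T cell identity genes were abundant in both arms, and of 7 such genes 6 were higher and 1 was lower in every edited library. Their sum was 4055 to 4148 CPM in the control and 5908 to 6097 CPM in the edited libraries, with Cd8a at 1573 and 1973 CPM. Of 6 melanoma genes Tyr, Dct and Tyrp1 had 0 counts in all 8 libraries. The summed level of those 6 was 4.05 to 4.31 CPM in the control and 13.8 to 15.1 CPM in the edited libraries, mostly Pmel (3.43 and 12.7 CPM). Of 8 myeloid markers, all were lower in every edited library, and their sum went from 130 to 135 CPM in the control down to 5.89 to 6.57 CPM, with Lyz2 at 83.1 and 0.148 CPM. That of 4 NK cell genes was 175 to 186 and 19.1 to 21.9 CPM, most of it Eomes, which CD8 T cells also express (173 and 17.7 CPM). That of 7 B cell genes was 23.5 to 24.7 and 18.9 to 20.7 CPM. These genes went both ways, 3 lower and 3 higher in every edited library, with Cd79b at 5.71 and 17.1 CPM against the direction of the sum. The sum of 3 CD4 T cell genes was 3.70 to 4.56 and 5.70 to 6.70 CPM (Cd40lg at 2.04 and 2.88 CPM). The part of these marker shifts in the results below was not tested, and in bulk RNA fewer cells of a type and less RNA per cell cannot be told apart.

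Transcripts of the ATPase Smarca4 and of the core subunit Smarcb1 were clearly lower in the Carm1-edited libraries, 1.80-fold and 2.24-fold. The other 8 subunits differed by 1.29-fold or less, and for 6 of them the direction or the call depended on how the libraries were scaled. With TMM factors 9 of the 10 subunits were lower and 0 higher, where 87.7% of all tested genes were called, 43.2% lower and 44.5% higher. At least 2-fold lower was 1 of the 10, Smarcb1, beside 15.2% of all genes. With upper-quartile factors 4 were lower and 4 higher (34.2% and 53.5% of all genes), and with library totals alone 4 were lower and 2 higher (36.5% and 51.1%). Under those factors the median log2 fold change over all genes went from 0.02 to 0.23 and 0.18, and that over the 10 subunits from -0.21 to 0.01 and -0.05. The 4 lower under all 3 scalings were Smarca4, Smarcb1, Smarcd1 and Pbrm1. In a test against a 1.5-fold change, 2 of 10 passed, Smarca4 and Smarcb1, both lower, beside 23.0% of all genes lower and 26.7% higher. For 8 of the 10 subunits every edited library lay below every control library, beside 41.2% of all genes, and 83.4% of all genes had no overlap in either direction. These levels too rest on the TMM factors.

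**Figure D1:**
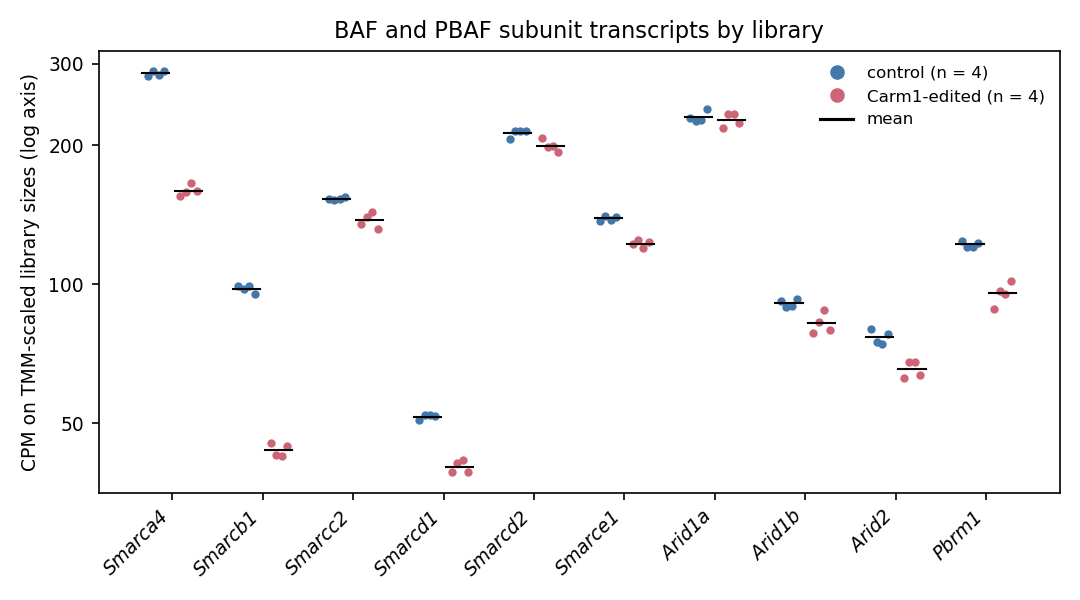
CPM (log axis) of each of the 10 subunit genes in the 4 control (blue) and 4 Carm1-edited (red) libraries, with black lines at the group means. Smarca4 and Smarcb1 are set apart by wide gaps, from 287 to 159.5 and from 97.8 to 43.7 CPM, while the libraries of Smarcd2 and Arid1a overlap.

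Smarca4 (ENSMUSG00000032187, chromosome 9, 21616169 to 21704230, plus strand, mm10) encodes BRG1, the main ATPase of the complexes. It was at 283, 290, 284 and 290 CPM in control libraries 1 to 4 and at 155, 159, 165 and 159 CPM in Carm1-edited libraries 1 to 4. All 4 edited libraries lay far below all 4 control libraries. The log2 fold change was -0.85 ± 0.023 SE (edgeR adjusted p = 5.73e-31), and 18.5% of the tested genes had a lower one. With upper-quartile factors it was -0.63 and with library totals -0.69, both still called.

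Smarcb1 (ENSMUSG00000000902, chromosome 10, 75896769 to 75921617, minus strand) encodes SNF5, a core subunit that contacts the nucleosome's acidic patch and is lost in rhabdoid tumours. Its level was 99.3, 97.6, 99.3 and 95.1 CPM in the control and 45.3, 42.6, 42.4 and 44.6 CPM in the edited libraries. Every edited library lay far below every control library. It showed the largest change of the 10, with a log2 fold change of -1.16 ± 0.027 SE (adjusted p = 5.46e-33), and 12.4% of tested genes had a lower one. The value was -0.95 with upper-quartile factors and -1.002 with library totals.

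Promoter sequences were read for these genes because they were the 2 with the largest falls. Those of Arid1a were read because its level differed least with TMM factors. With upper-quartile factors it was called higher (log2 fold change 0.20), and Arid2 differed least (-0.01). RefSeq windows of 300 bases (GRCm38.p6, 250 before to 50 after a start) were found for 8 of the 10 genes, 9 windows in all. Arid2 and Smarce1 were not analysed here. The motif GCATGCGC, the core of sites of the factor NRF1, was searched on both strands, where its other strand reads GCGCATGC. It occurred in the windows of Smarca4, at 2 places, and Smarcb1, at 1, and in none of the windows of the other 6 genes. Of all 32851 windows 2.71% hold it. The Smarcd2 window, 106267583 to 106267882, lies inside the gene, away from its deposited start at 106272972. For Smarcc2 the bases checked after the start were not found in its transcripts. So these 2 windows were not shown to hold the promoters. The windows of 1 of the 8 genes held the E-box CACGTG (Pbrm1, 7.15% of all windows), those of 2 the E2F-type motif TTTCCCGC or GCGGGAAA (Smarcd1 and Arid1a, 1.07%), those of 1 the YY1-type motif AAGATGGC or GCCATCTT (Smarcd1, 2.75%), and those of 0 the ETS-type motif CCGGAAGT or ACTTCCGG (3.89%). The E2F-type match of Arid1a lay in its window at 133753936 to 133754235, inside the gene, and not in the window at its deposited start. The motifs were chosen with the expression values known, the matches are descriptions of letters, and no binding was measured. The NRF1-type motif is in capitals below.
Smarca4, the 250 bases before its start, chr9:21615919-21616168, plus strand: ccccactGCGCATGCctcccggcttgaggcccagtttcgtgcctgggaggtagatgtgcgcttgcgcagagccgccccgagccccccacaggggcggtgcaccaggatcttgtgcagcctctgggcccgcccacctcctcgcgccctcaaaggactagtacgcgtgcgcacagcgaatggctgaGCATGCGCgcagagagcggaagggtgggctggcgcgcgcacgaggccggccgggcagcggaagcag
Smarcb1, 24 bases around the match just after its start, chr10:75921585-75921608, minus strand: ttctccacGCATGCGCaccgaggg
Arid1a, the 250 bases before its start, chr4:133756770-133757019, minus strand: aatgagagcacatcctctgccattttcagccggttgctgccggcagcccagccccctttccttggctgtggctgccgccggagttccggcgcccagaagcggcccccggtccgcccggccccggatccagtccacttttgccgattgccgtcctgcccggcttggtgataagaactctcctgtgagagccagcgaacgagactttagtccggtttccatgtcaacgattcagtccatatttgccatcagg
In the Smarca4 stretch the motif begins 243 and 66 bases before the start, and the Arid1a stretch holds none. The windows of the 9 starts were rich in G and C, from 55.0% to 81.0%, beside a median of 52.7% over all windows. They held 4 to 48 CpG dinucleotides, beside a median of 7. The Smarca4 and Smarcb1 windows held 72.3% and 60.7% G and C and 33 and 27 CpG. The motif percentages over all windows are not matched for this content, so they are no fitting background for these windows.

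Among the remaining core subunits, Smarcd1 (chromosome 15, 99702287 to 99713995) was the one that fell under every scaling. It encodes BAF60A, a scaffold protein shared by all assemblies. It was at 50.8, 52.1, 52.0 and 51.7 CPM in the control and 39.1, 41.0, 41.5 and 39.1 CPM in the edited libraries, without overlap. The log2 fold change was -0.36 ± 0.031 SE (adjusted p = 4.62e-14), and -0.15 and -0.20 with upper-quartile factors and library totals. A predicted gene on the other strand, Gm17349, shares 176 bases of its exons and was at 1.70 and 1.02 CPM. In a library kit that does not mark strand, its reads cannot be told from those of Smarcd1.

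The other 3 core genes stayed within 1.13-fold of the control. Smarcc2 (chromosome 10, 128459236 to 128490173), which encodes the scaffold BAF170, was at 152 to 154 CPM in the control and 132 to 143 CPM in the edited libraries. Its log2 fold change of -0.15 ± 0.025 SE (adjusted p = 4.38e-07) turned to 0.06 (adjusted p = 0.0212) with upper-quartile factors and 0.01 (adjusted p = 0.808) with library totals. Smarce1 (chromosome 11, 99209047 to 99231017), which encodes the HMG-box protein BAF57, was at 137 to 140 and 120 to 124 CPM, with a log2 fold change of -0.18 ± 0.023 SE (adjusted p = 3.41e-09). That value was 0.03 (adjusted p = 0.167) with upper-quartile factors and -0.02 (adjusted p = 0.400) with library totals. Smarcd2 (chromosome 11, 106263179 to 106272972), which encodes BAF60B, a paralogue of Smarcd1 known for its part in granulocyte maturation, was at 206 to 215 and 193 to 208 CPM, and the libraries overlapped. The log2 fold change of -0.09 ± 0.024 SE (adjusted p = 5.89e-04) became 0.12 and 0.07 under the other 2 scalings, both called higher. So no direction can be given for these 3 genes from their scaled levels.

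The subunits that define BAF, the large DNA-binding proteins Arid1a and Arid1b, hardly differed. Arid1a (chromosome 4, 133679008 to 133756769) was at 230, 225, 227 and 240 CPM in the control and 217, 233, 234 and 224 CPM in the edited libraries, which overlapped throughout. It was the 1 subunit not called with TMM factors (log2 fold change -0.02 ± 0.025 SE, adjusted p = 0.451), yet was called higher with upper-quartile factors (0.20) and with library totals (0.14). Arid1b (chromosome 17, 4994332 to 5347656) was at 89.4 to 93.0 and 78.5 to 88.1 CPM, with a log2 fold change of -0.15 ± 0.029 SE (adjusted p = 1.73e-05). This turned to 0.07 (adjusted p = 0.0275) with upper-quartile factors and 0.01 (adjusted p = 0.677) with library totals.

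Of the subunits that define PBAF, Pbrm1 fell under every scaling and Arid2 did not. Pbrm1 (chromosome 14, 31019138 to 31121592) encodes BAF180, which has several bromodomains that read acetylated histones. It was at 124, 120, 121 and 123 CPM in the control and 88.4, 96.8, 95.4 and 101 CPM in the edited libraries. The edited libraries were spread more widely and still lay below every control library. The log2 fold change was -0.35 ± 0.029 SE (adjusted p = 9.34e-13), and -0.14 and -0.19 with upper-quartile factors and library totals. Arid2 (chromosome 15, 96287518 to 96404992), which encodes BAF200, was at 74.0 to 80.1 and 62.6 to 68.0 CPM. Its log2 fold change was -0.23 ± 0.030 SE (adjusted p = 7.31e-09), -0.01 (adjusted p = 0.660) with upper-quartile factors and -0.07 (adjusted p = 0.0522) with library totals.

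**Figure D2:**
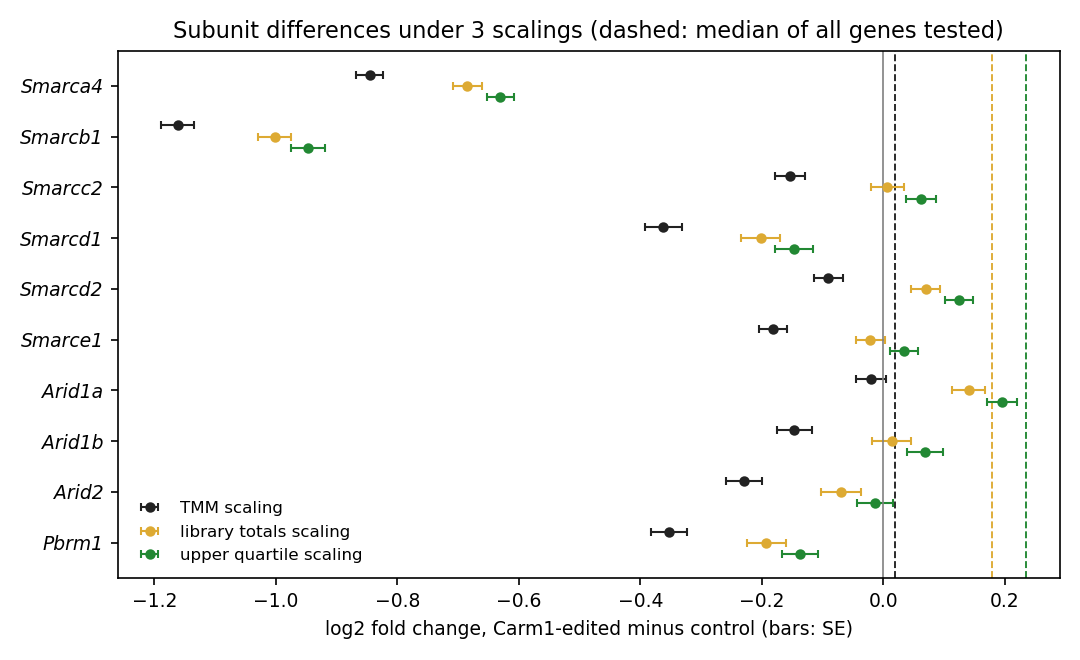
Log2 fold change, Carm1-edited minus control, of each of the 10 subunit genes with TMM factors (black), library totals alone (yellow) and upper-quartile factors (green), with SE bars and dashed lines at each scaling's median of all genes tested. Smarca4 and Smarcb1 stay at or below -0.63 under all 3, while Arid1a runs from -0.02 to 0.20.

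Ratios between genes of 1 library do not move with the scaling, so the makeup of the subunit pool was compared directly, on counts per kb of gene length. Of the summed level of the 10 subunits, Smarca4 made up 19.1% ± 0.134 in the control and 13.1% ± 0.259 in the edited libraries, and Smarcb1 5.32% ± 0.149 and 2.94% ± 0.136. The share of Smarcd2 went from 25.5% ± 0.393 to 29.7% ± 0.951 and that of Arid1a from 8.66% ± 0.207 to 10.6% ± 0.266. Smarcc2, Smarce1 and Arid1b also had larger shares in every edited library. The sizes depend on the length used. On the longest coding transcript of each gene Smarcb1 made up 17.4% ± 0.428 and 10.0% ± 0.409, and Smarca4 13.3% ± 0.116 and 9.51% ± 0.222, and the directions above held for all 7 of these genes. The share of Smarcd1 was smaller in every edited library on deposited lengths (7.07% and 6.80%) but overlapped on transcript lengths (4.61% and 4.62%). That of Arid2 overlapped on deposited lengths (3.08% and 3.25%) and was larger in every edited library on transcript lengths (2.66% and 2.93%). For Pbrm1 the shares overlapped on both (5.95% and 5.76%, and 4.55% and 4.59%). These shares sum to a fixed total, so they describe the makeup and are not independent of each other.

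Related subunits were set against each other within each library, in 6 shares tested by exact two-sided permutation tests. The exact p was 0.0286 for every share, which is the minimum for 4 against 4, with adjusted p = 0.0286 over the 6 (Benjamini-Hochberg). None of the 6 overlapped between the arms, where 83.4% of single genes did not either.

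Smarca4 made up 86.7% to 87.0% of the ATPase pair Smarca4 and Smarca2 in the control and 80.6% to 81.1% in the edited libraries, a difference of -6.06 percentage points. The 2 ATPases are mutually exclusive in a complex. Smarca2 was at 95.5 ± 1.33 and 83.5 ± 3.31 CPM, with a log2 fold change of -0.19 ± 0.026 SE (adjusted p = 1.15e-08) that was 0.02 with upper-quartile factors (adjusted p = 0.458). With the length of the longest coding transcript in place of the deposited length, the difference in the share was -9.64 points, since the deposited length of Smarca2, 14269 bases, is far above that transcript's 5921.

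The scaffold pair Smarcc1 and Smarcc2 had the largest difference of the 6 in percentage points. Smarcc2 made up 57.6%, 58.4%, 58.8% and 58.8% of the pair in the control and 68.7%, 69.0%, 69.1% and 67.3% in the edited libraries, 10.1 points more. Each edited library lay well above each control library. Smarcc1 itself fell from 170 ± 3.96 to 98.4 ± 1.83 CPM, with a log2 fold change of -0.79 ± 0.024 SE (adjusted p = 8.39e-29) and still -0.57 with upper-quartile factors. Smarcc1 shares 123 bases of exons with Dhx30, on the other strand, which was at 135 and 79.8 CPM.

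Among the 3 Smarcd paralogues, Smarcd2 held 78.0% ± 0.208 in the control and 81.0% ± 0.733 in the edited libraries, and Smarcd1 21.6% ± 0.188 and 18.6% ± 0.692. These are nearly mirror images, because Smarcd3 was close to 0, at 1.38 ± 0.0722 and 1.56 ± 0.231 CPM (log2 fold change 0.18 ± 0.14 SE, adjusted p = 0.245). Smarcd3 is known from heart and muscle, and 2466 bases of its exons overlap Chpf2, on the other strand, at 43.0 and 38.0 CPM, so its count is uncertain. The share of Arid1b in the pair with Arid1a was 26.5% ± 0.273 and 24.8% ± 0.513. That p rose to 0.0571 (exact permutation test, 3 against 4) without control replicate 1, 2 or 3. The share of Arid2, the PBAF member, among the 3 Arid genes was 20.7% ± 0.500 and 18.8% ± 0.152. Paralogues have similar stretches, and how reads shared by them were counted is not given in the sources used here.

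**Figure D3:**
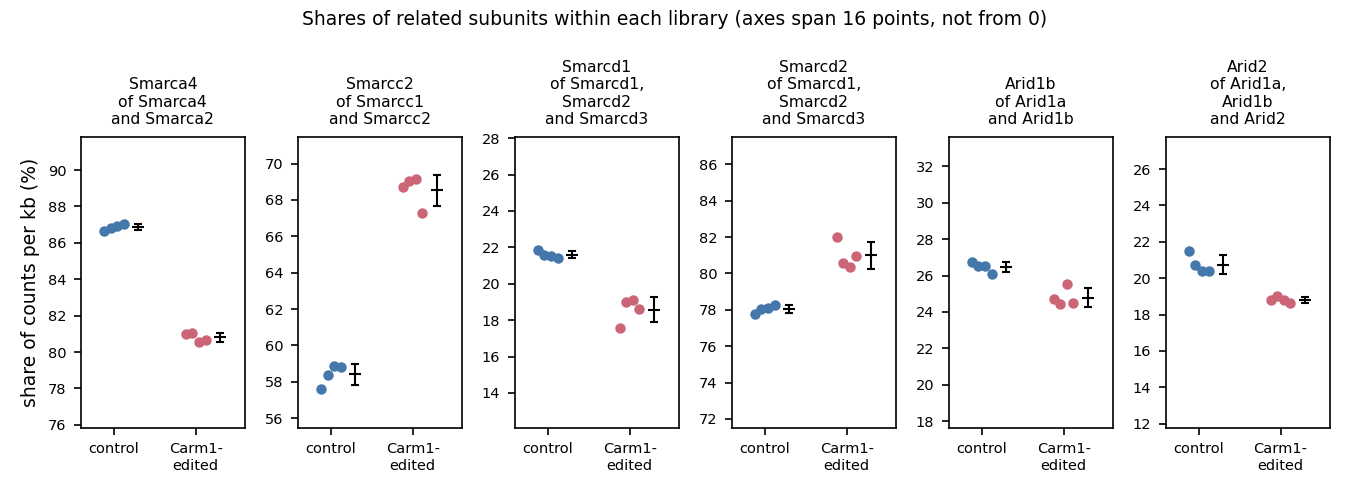
Share (percent of counts per kb of gene length) of 1 subunit gene among its related genes in each control (blue) and Carm1-edited (red) library, with mean ± SD in black, on axes that span an equal number of percentage points and do not start at 0. The largest gap is that of Smarcc2, from 58.4% to 68.5%, and the smallest is that of Arid1b, from 26.5% to 24.8%.

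Per kb of deposited gene length, Smarcd2 was the most abundant of the 10 in both arms (59.2 ± 1.249 and 55.6 ± 1.67 CPM per kb). In the control it was followed by Smarca4 at 44.3 ± 0.555, Smarcc2 at 30.4 ± 0.165, Smarce1 at 20.9 ± 0.222 and Arid1a at 20.1 ± 0.577 CPM per kb, the last pair within their spread. Then came Smarcd1 at 16.4 ± 0.181, Pbrm1 at 13.8 ± 0.198, Smarcb1 at 12.3 ± 0.248, and Arid1b and Arid2 at 7.22 ± 0.137 and 7.15 ± 0.259 CPM per kb, again within their spread. In the edited libraries Smarcc2, at 27.4 ± 1.03, stood above Smarca4, at 24.6 ± 0.664 CPM per kb, and Smarcb1, at 5.51 ± 0.183, was the lowest of the 10. The order rests on the deposited lengths, most of all for Smarcb1, with 7930 bases, and Smarce1, with 6650. On the longest coding transcript, of 2919 bases, Smarce1 was at 47.5 ± 0.506 CPM per kb in the control, above Smarca4 at 44.96 ± 0.564 and well above Arid1a at 28.1 ± 0.809. Smarcb1, on its longest coding transcript of 1660 bases, was at 58.9 ± 1.19 CPM per kb in the control, second to Smarcd2 at 77.4 ± 1.63, and at 26.3 ± 0.875 in the edited libraries. There it came after Smarcd2, Smarce1 and Smarcc2 and was close to Arid1a at 27.8 ± 0.971 and Smarca4 at 25.0 ± 0.675 CPM per kb.

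Among the other SWI/SNF subunits both directions occurred. Of 21 such genes 19 were tested, of which 6 were higher, 8 lower and 5 not called, with a median of -0.02 in log2 fold change, beside 0.02 for all genes. Over all genes 44.5% were higher and 43.2% lower. With upper-quartile factors 12 of the 19 were higher and 5 lower (53.5% and 34.2% of all genes). With library totals these were 11 and 6 (51.1% and 36.5%). Of the ATPase module, Actl6a, Actb and Bcl7a fell under TMM, upper-quartile and library-total scaling, as did Smarca4. Its other genes did not. Bcl7b was lower with TMM factors and library totals but not called with upper-quartile factors. Bcl7c was not called with TMM factors and was higher with upper-quartile factors (0.19) and library totals (0.13). Smarca2, the other ATPase, was lower with TMM factors and not called with upper-quartile factors or library totals. The adaptor gene Ss18 was not called with TMM factors and was higher with upper-quartile factors (0.20) and library totals (0.14). The adaptor gene Ss18l1 was higher under TMM, upper-quartile and library-total scaling (0.33, 0.54 and 0.49). Actl6a, the actin-related subunit BAF53A, went from 110 ± 3.11 to 55.7 ± 1.26 CPM (log2 fold change -0.98 ± 0.026 SE, adjusted p = 4.83e-31). Actb, the beta-actin that is also a subunit but is mostly cytoskeletal, went from 7184 ± 58.5 to 3390 ± 53.8 CPM (-1.08 ± 0.018 SE). Of the 9 tested genes whose products BAF, PBAF and ncBAF share, Smarca4 and Smarcd1 included, 8 were lower and 1 was not called with TMM factors. With upper-quartile factors 6 were lower, 1 higher and 2 not called. Over all genes 43.2% and 34.2% were lower under these 2 scalings. Bcl11a, a zinc finger relative of Bcl11b, had 226 counts in the control and 2 in the edited libraries, a ratio of 110 (95% exact interval 30.2 to 917, counting error only).

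In the opposite direction, all 3 genes that define ncBAF were higher under TMM, upper-quartile and library-total scaling. Over all genes 44.5%, 53.5% and 51.1% were higher and 43.2%, 34.2% and 36.5% lower under these scalings. Such a rise was not limited to ncBAF. Dpf1, a BAF histone reader at low counts (66 in the control and 316 in the edited libraries), rose more (log2 fold change 2.13 ± 0.18 SE, adjusted p = 2.76e-14). Bicra, the scaffold GLTSCR1, rose from 32.9 ± 0.747 to 61.8 ± 3.93 CPM (log2 fold change 0.91 ± 0.037 SE, adjusted p = 1.02e-21), and its paralogue Bicral rose from 23.7 ± 0.114 to 41.1 ± 1.79 CPM (0.79 ± 0.037 SE). Brd9, the bromodomain subunit of ncBAF, which was chosen after its values were seen, was at 37.9, 38.0, 38.5 and 38.5 CPM in the control and 58.9, 57.3, 57.3 and 61.4 CPM in the edited libraries (0.62 ± 0.030 SE, adjusted p = 1.08e-21). It did not pass the test against a 1.5-fold change (adjusted p = 0.0906). Of the 4 PBAF-defining genes, Pbrm1, Arid2 and Brd7 were lower and Phf10 was not called with TMM factors. With upper-quartile factors 1 was lower, Pbrm1, and 2 were higher, Brd7 and Phf10. Bcl11b, a T lineage zinc finger protein that associates with BAF, rose from 185 ± 6.18 to 296 ± 8.14 CPM (0.67 ± 0.024 SE, adjusted p = 6.96e-26).

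**Figure D4:**
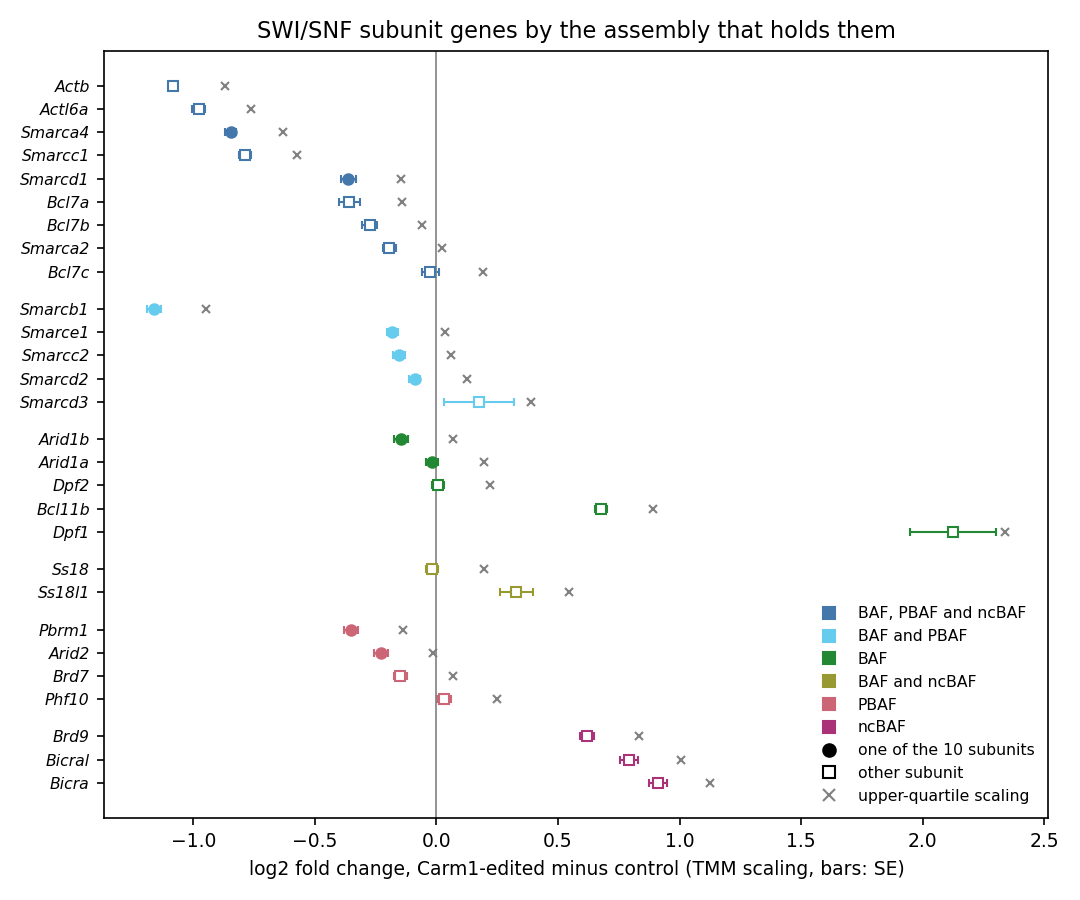
Log2 fold change, Carm1-edited minus control, of the tested SWI/SNF subunit genes grouped by the assembly that holds them, with filled circles for the 10 subunits, open squares for other subunits, SE bars, and grey crosses for upper-quartile scaling; Bcl11a, with 2 counts in all edited libraries, is left out. Brd9, Bicral and Bicra lie between 0.62 and 0.91, opposite to Smarca4 at -0.85 and Smarcb1 at -1.16.

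Other remodeller families were mixed as well. Of 9 tested ISWI genes 4 were higher and 5 lower (median log2 fold change -0.48), of 19 CHD and NuRD genes 8 and 11 (-0.28), and of 22 INO80, SRCAP and p400 genes 6 and 15 (-0.49). Over all genes 44.5% were higher and 43.2% lower. With upper-quartile factors the counts were 4 and 5, 9 and 9, and 7 and 13, beside 53.5% and 34.2% of all genes. The largest were Pole3, a histone-fold subunit, from 55.3 ± 1.35 to 14.6 ± 1.18 CPM, and Baz2b, a bromodomain protein, from 17.3 ± 0.506 to 35.1 ± 1.05 CPM. In the other families they were the NuRD subunits Rbbp7, from 417 ± 2.92 to 127 ± 2.87 CPM, and Mbd3, from 206 ± 6.35 to 80.7 ± 2.54 CPM, and the helicases Ruvbl2, from 183 ± 4.53 to 47.0 ± 1.95 CPM, and Ruvbl1, from 121 ± 0.793 to 31.6 ± 0.818 CPM.

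Smarca4 is a close neighbour of the edited gene. Its start lies 23.5 kb past the end of Carm1, on the same strand, with Timm29 among the genes between them. In the window from 100 kb before Carm1 to 100 kb after Smarca4, 10 tested genes are reported here, Carm1 and Smarca4 included. Of these 6 were higher and 4 lower, beside 44.5% and 43.2% of all genes. Past Smarca4, Spc24, a kinetochore gene, fell from 18.2 ± 0.638 to 10.8 ± 0.763 CPM. Farther off, Kank2 and Dock6 rose from low levels, 0.126 to 1.21 and 1.64 to 9.54 CPM. Timm29, a mitochondrial import gene, was at 43.9 ± 2.75 and 47.4 ± 2.36 CPM, with libraries that overlapped, and its call (0.11 ± 0.040 SE, adjusted p = 0.0116) was lost without control replicate 1 (adjusted p = 0.122) or 2 (0.0618). On the other side of Carm1, AB124611 and Dnm2 were higher (0.70 and 0.36) and Tmed1 was lower (-1.38). Yipf2, which shares 1025 exon bases with Carm1 on the other strand, rose from 4.70 ± 0.575 to 16.2 ± 0.791 CPM, and without strand its reads cannot be told from those of Carm1. The position of the edit is not given in the sources used here, and whether nearness to it bears on the Smarca4 level was not tested.

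**Figure D5:**
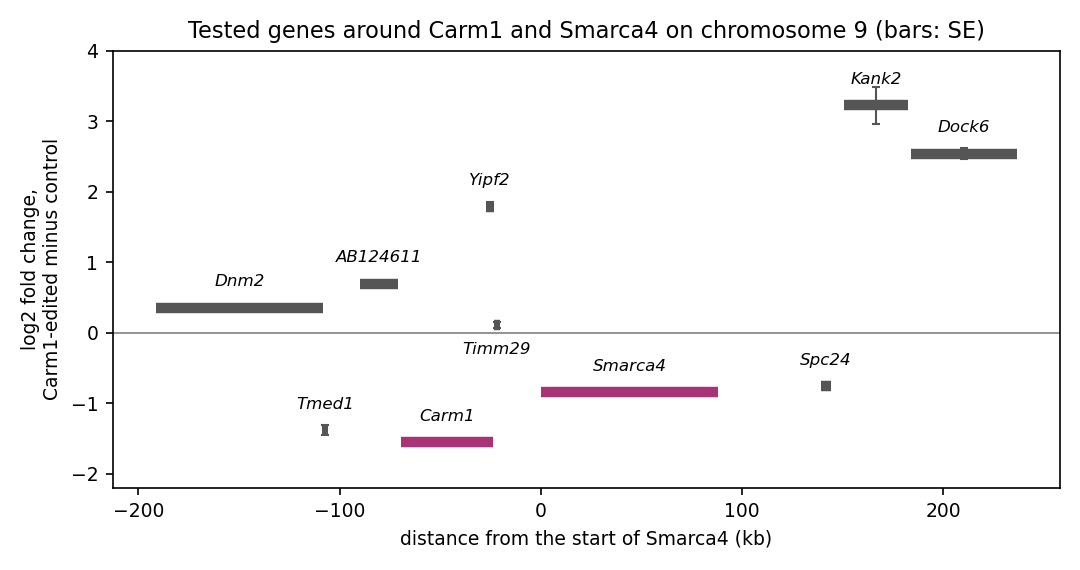
Log2 fold change, Carm1-edited minus control, of the 10 reported genes around Carm1 and Smarca4 (both purple), each drawn from its start to its end by distance from the start of Smarca4 in kb, with SE bars. Values lie on both sides of 0, from -1.55 for Carm1 to 3.22 for Kank2.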

How the data were processed

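The authors deposited whole-number counts per Ensembl gene, 1 file per library, and the submitters' processing notes name RSEM and mm10. Aligner, annotation, strand setting and versions: not given in the sources used here. Each file also holds gene lengths, which equal the union of the listed exons for all 49315 genes. Symbols came from GENCODE M21 (48970 genes). The members and lists were chosen with earlier results of these data known. Named genes were the 10 subunits, Carm1, paralogues of the subunits, the 6 other SWI/SNF subunits and 2 genes of each other remodeller family with the largest called change at a mean of at least 2 CPM, tested genes within 100 kb of the stretch from Carm1 to Smarca4 (1 result there is not reported here), and the most abundant marker of each other cell type. Brd9, Brd7, Phf10, Bcl11a, Dpf1, Bcl7a, Bcl7b, Bcl7c, Ss18 and Ss18l1 fell outside this rule and were named after their values were seen. Assemblies were assigned from textbook knowledge after values were seen.

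Genes were filtered by filterByExpr (14970 kept) and scaled by TMM (0.938 to 0.953 in control, 1.05 to 1.07 in edited libraries). They were tested with robust edgeR 4.0.16 quasi-likelihood fits in R 4.3.3. The fits were also run on simulated counts in which few genes differed. Such counts cannot probe the scaling of these data, where 87.7% of genes were called. The SE is the log2 fold change divided by the square root of F. Within groups, pairs of libraries differed by 1.45 to 13.8 times sampling noise (chi-square per degree of freedom), so none was counted as a copy. Shares used exact permutation tests in Python 3.11.15. Alternatives were RLE, upper-quartile and no factors, 2 other filters, DESeq2 1.42.0, limma-voom (limma 3.58.1), a test against a 1.5-fold change, a replicate block and leaving out each library.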

Additional observations from a re-analysis of the deposited data

Results flagged for a closer look

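Smarcd2 in control replicate 1 stood apart from the other control libraries, at 206 CPM beside 214 to 215 CPM. Its gap was 0.924 of the group's range (Dixon's ratio), above the 95% critical value for 4 libraries. It was the 1 such value in 78 groups checked, where chance gives about 1 in 20.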

How the results depend on the processing

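Smarca4 and Smarcb1 were lower and called under all 17 alternatives, at -0.87 to -0.63 and -1.19 to -0.95, and Smarcd1 and Pbrm1 under 16 of 17, all but the test against a 1.5-fold change. Of the 10 subunits, 4 were lower with upper-quartile factors, 4 with library totals and 2 in the test against 1.5-fold, and 4, 2 and 0 were higher, with 1 higher when genes needed at least 5 CPM in 4 libraries. For the other SWI/SNF subunits, 5 were lower with upper-quartile factors and 4 in the 1.5-fold test, and 12 and 11 were higher with upper-quartile factors and library totals. Over all genes, 7436 passed the 1.5-fold test beside 13135. With upper-quartile factors the sign turned for Smarcc2 (0.0617), Smarcd2 (0.125), Smarce1 (0.0337), Arid1a (0.196), Arid1b (0.0689) and Smarca2 (0.0207), with library totals for Smarcc2 (0.00701), Smarcd2 (0.0699), Arid1a (0.141) and Arid1b (0.0142), and with the 5 CPM filter for Smarcd2 (0.00280) and Arid1a (0.0734). These shifts follow the factors, which move all genes alike. Same-numbered libraries did not deviate together (correlations of -0.085 to -0.051, 0 of 4 best with their own number), and the replicate block called 13031 genes and changed no call of the 10 subunits. Pairing by number, an exact sign-flip test of the shares gave p = 0.125, the smallest 4 pairs allow, for each difference, in percentage points: Smarca4 -6.06, Smarcc2 10.1, Smarcd1 -3.03, Smarcd2 2.94, Arid1b -1.68 and Arid2 -1.94. Leaving out 1 library gave -1.93 to -1.56 points for Arid1b. Transcript length as a choice for shares and makeup was added after the data were seen. Each subunit had at least 1560 counts per library. What limits the results is that the 4 libraries of an arm are technical replicates.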
